A study of Mus musculus with 4 samples.

Results

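The higher-coordinate distal flank of the Tnfaip3 contact profile is the stretch of mouse chromosome 10 from position 19308921 to position 20207921 in mm9 coordinates. It holds all 900 positions, 1 kb apart, that lie more than 100 kb above the profile's middle at 19207921, of 2001 positions in that profile and 4002 in the series. They were chosen by position alone, with no measured value. The product of Tnfaip3 is A20, which restrains NF-κB signalling and is itself induced in macrophages by inflammatory stimuli. Chromosome conformation capture by 4C-seq reads which DNA fragments were ligated to 1 chosen fragment, the viewpoint, after chromatin was fixed and cut. Contact is commonly high beside the viewpoint and falls with distance, so that far flanks carry mostly low, scattered signal on which a distal element in frequent contact would stand out.

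The 2 libraries used were mouse embryonic stem cells (ESC) of the line 46c, grown without feeders and with LIF, and a library titled macrophage with KLA whose source is RAW 264.7, an established mouse macrophage-like cell line. The labels describe KLA, a lipid A agonist of TLR4, given for 1 h to peritoneal macrophages only, so neither the time nor the use of KLA on the RAW 264.7 cells is described beyond the title, and cell type and KLA cannot be told apart. Both were fixed in 1% formaldehyde and cut with HindII and then DpnII. The series has 4 libraries in all, of which the other two are at the Il1a viewpoint and are not used here. There is 1 library per group, so no difference below has a replicate error or a p-value, and read depth is unknown. The sources used here do not give the viewpoint's position, so distances are counted from the middle of the profile.

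The deposited contact signal is relative to the highest 2 kb window of its own library. Each library was divided by its median over the positions 500 to 900 kb from the middle on both sides, the far level, which was 0.136 in ESC and 0.133 in RAW 264.7 cells for 10 kb windows. A contact of 1 therefore means the far level of that library. Positions 500 to 900 kb above the middle are part of this reference. In the RefSeq gene order of GRCm38.p6, another build, the protein-coding genes that follow Tnfaip3 towards higher coordinates are Olig3, Ifngr1, Il22ra2, Il20ra, Slc35d3, Pex7, Map3k5, Map7, Rpl32l, Bclaf1, Mtfr2 and Pde7b. Ifngr1, Il22ra2 and Il20ra encode cytokine receptors or receptor chains, and Map3k5 encodes the stress kinase ASK1. No window below was placed at a gene, because no mm9 annotation or sequence was used here.

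Over the flank as a whole, contact was at the far level in both cell types. In 10 kb windows the median was 1.02 in ESC, with a lowest value of 0.0156 and a highest of 2.51 over 895 positions with a value. In RAW 264.7 cells the median was 1.03, the lowest value 0.0237 and the highest 2.37. The central 90% of positions lay between 0.516 and 1.55 in ESC and between 0.551 and 1.55 in RAW 264.7 cells. This was a wider range than in the lower-coordinate flank, with 0.582 to 1.47 in ESC and 0.619 to 1.46 in RAW 264.7 cells. At the inner edge of the flank contact was raised, beside a local maximum at 19310921. Within 100 kb of the middle the median was lower than at this edge, with 1.24 in ESC and 1.27 in RAW 264.7 cells. The first position inside, 19308921, had 1.70 in ESC and 1.77 in RAW 264.7 cells, and the last one outside, at 100 kb, had 1.86 and 1.93. At the outer end, the last position with a value, at 995 kb, had 1.49 and 1.39.

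Along the flank the medians of 100 kb segments moved little and did not fall steadily. In ESC they were 1.07 at 100 to 200 kb, each segment excluding its lower end, 1.05 at 200 to 300 kb, 1.04 at 300 to 400 kb and 0.973 at 400 to 500 kb. They were 1.10 at 500 to 600 kb, 0.895 at 600 to 700 kb, 1.12 at 700 to 800 kb, 0.949 at 800 to 900 kb and 0.915 beyond. In RAW 264.7 cells the nearest 3 segments had 1.21, 1.11 and 1.11, followed by 0.943 at 400 to 500 kb, 1.09 at 500 to 600 kb and 0.936 at 600 to 700 kb. The last 3 segments of that library had 1.08, 0.932 and 0.915. In both libraries the segments at 500 to 600 kb and at 700 to 800 kb stood above their neighbours, and the 2 farthest segments were below the far level.

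**Figure D1:**
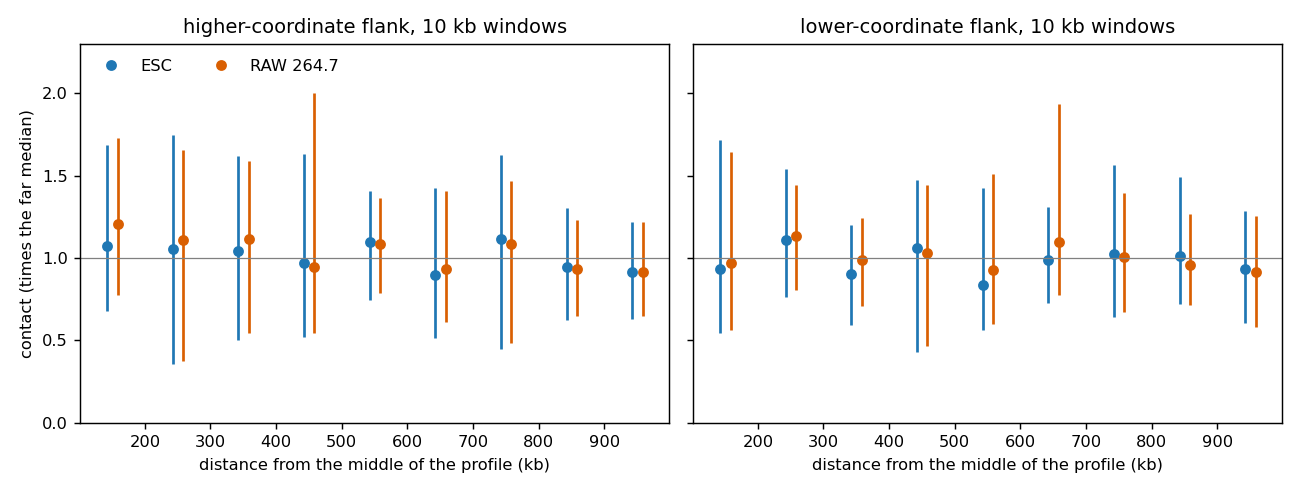
Median contact (dots) and the range of the central 90% of positions (bars) in 10 kb windows, in multiples of the far level, for each 100 kb segment above the middle (left) and below it (right). In the higher-coordinate flank the ESC medians lie between 0.895 and 1.12 and the RAW 264.7 medians between 0.915 and 1.21; the bars describe spread along 1 library, not between libraries.

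The 2 kb windows, the narrowest deposited, show what the profile is built from. Of the 900 windows in the flank, 828 had a value, 1 ran past the end and 71 were listed at exactly 0, in both libraries alike and never in 1 library alone. The windows at 0 fell into 31 stretches. The longest stretches at 0 covered 8 consecutive windows from 242 to 249 kb, 7 from 492 to 498 kb, 6 from 285 to 290 kb and 6 from 524 to 529 kb.

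Most 2 kb windows with a value held a pair of values, 1 per library, that was repeated elsewhere. Equal to 6 decimals in both libraries, the pair recurred at a position at least 10 kb away in the profile for 555 of the 828 windows (67%), and these windows held 193 distinct pairs. The most frequent pair was 0.323 as deposited in ESC with 0.280 in RAW 264.7 cells, found in 22 windows of the flank, as far out as 992 kb, and in 58 of the whole profile. The flank had 24 windows with this ESC value, so 22 of 24 also had the same RAW 264.7 value. The next pair was 0.111 in ESC with 0.111 in RAW 264.7 cells, in 19 windows, and the one after was 0.0576 with 0.0608, in 14 windows. In multiples of the far level these 3 pairs were 2.50 and 2.31, 0.863 and 0.915, and 0.447 and 0.502, each time ESC first. A 2 kb contact of 2.50 in ESC was therefore a level shared by many windows near and far. Whether such repeated values reflect reads counted at each place, or a value assigned to a kind of fragment, was not tested, and this bears on what every contact value, maximum and correlation given here measures.

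The ratio between the cell types varied among repeated pairs. The most frequent pair had a log2 ratio of RAW 264.7 over ESC of -0.12, the pair of 0.447 and 0.502 had 0.17, and the pair of 0.154 and 0.246, found in 9 windows, had 0.68. Over all repeated windows of the flank the median was 0.67 in windows below 0.5 times the far level in ESC, 0.03 in windows from 0.5 to 1.5, and -0.05 in windows above. The ratios ran from 0.0083 to 0.71 in the low windows, from -0.45 to 0.76 in the middle ones and from -1.12 to 0.17 in the high ones. These ranges overlapped, so the level group did not fix the ratio. The offset that links each value to its bounds was 0.0129 in ESC and 0.0180 in RAW 264.7 cells as deposited, and its part in these ratios was not tested. The share of repeated pairs was 66.2% in the lower-coordinate flank and 70.9% within 100 kb of the middle, so it was similar in every part of the profile.

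**Figure D2:**
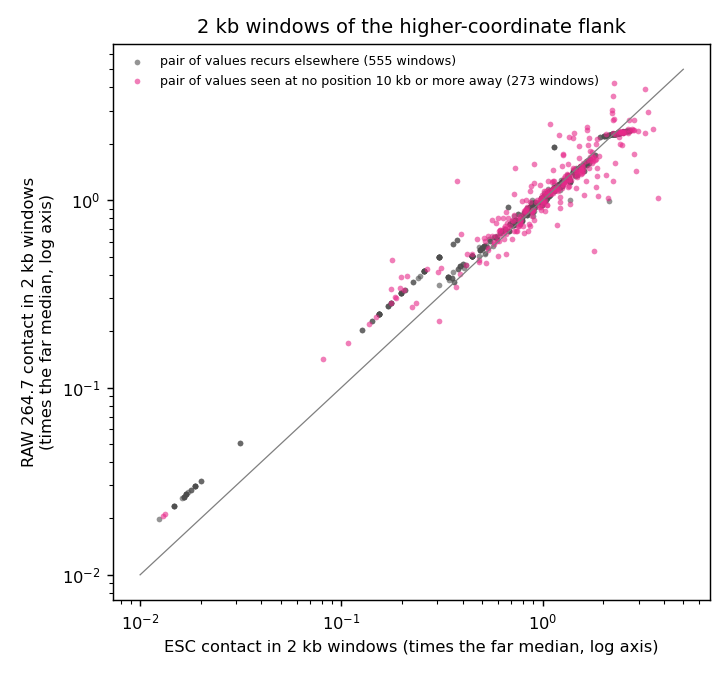
Contact in 2 kb windows of the flank in ESC (horizontal) and RAW 264.7 cells (vertical), both in multiples of the far level on log axes, with the line of equality. Grey points are the 555 windows whose pair of values recurs at least 10 kb away and pink points the other 273; at low contact many grey points lie above the line, and the pink points scatter on both sides.

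Large differences between single 2 kb windows were few. RAW 264.7 cells were at least 2-fold higher in 4 of 828 windows (0.483%), against 1.13% of all windows of the profile, and ESC in 5 (0.604%), against 0.648%. All but 1 of these windows were outside the repeated pairs, a division that itself depends on the values of both libraries. The highest 2 kb window of the flank in ESC was at 675 kb (position 19882921), with 3.74 in ESC and 1.03 in RAW 264.7 cells, a log2 ratio of -1.87. The highest in RAW 264.7 cells was at 614 kb (19821921), with 4.21 in RAW 264.7 cells and 2.27 in ESC. The window at 922 kb had 1.27 in RAW 264.7 cells and 0.375 in ESC, and the window at 762 kb had 0.539 and 1.80. In 10 kb windows the differences were smaller. At 675 kb contact was 0.989 in ESC and 0.895 in RAW 264.7 cells, at 614 kb it was 0.672 and 0.815, at 922 kb 0.889 and 0.922, and at 762 kb 0.973 and 0.862.

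In 10 kb windows 12 local maxima reached 1.5 times the far level in ESC and 11 did so in RAW 264.7 cells, with maxima at least 20 kb apart. Of the 12 in ESC, 10 (83.3%) had a RAW 264.7 maximum within 5 kb, and of the 11 in RAW 264.7 cells, 10 (90.9%) had an ESC maximum within 5 kb. Most of them lay close in, with 7 in each library at 100 to 400 kb, 4 in ESC and 3 in RAW 264.7 cells at 400 to 700 kb, and 1 in each beyond. Only 1 maximum in ESC and 2 in RAW 264.7 cells reached 2 times the far level.

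The highest ESC maximum was at 287 kb, in the window chr10:19489921-19499921, with 2.51 in ESC and 2.05 in RAW 264.7 cells. It was the second highest in RAW 264.7 cells. The centre of this window is the middle of a stretch at 0, and windows narrower than 8 kb were at 0 there. Of the 9 windows of 2 kb inside it 6 were at 0, and the 3 with a value all held repeated pairs at 2 or more times the far level in both libraries. The deposited bounds ran from 0.481 to 11.7 in ESC and from 0.654 to 5.89 in RAW 264.7 cells. In 20 kb windows the contact there was 1.33 and 1.28.

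The highest RAW 264.7 maximum was at 419 kb, in the window chr10:19621921-19631921, with 2.37 in RAW 264.7 cells and 1.98 in ESC. It lay in the longest raised stretch of the flank in both libraries. Contact stayed at or above 1.5 over 13 positions from 416 to 428 kb in RAW 264.7 cells and over 11 positions from 416 to 426 kb in ESC. Over the RAW 264.7 stretch the mean was 1.98 in RAW 264.7 cells, with values from 1.72 to 2.37, and 1.64 in ESC, with values from 1.43 to 1.98. Every one of the 9 windows of 2 kb around 419 kb had a value, and 4 of them held repeated pairs. The deposited bounds there were wider than at 287 kb, from 0.193 to 14.8 in ESC and from 0.186 to 19.5 in RAW 264.7 cells. At this position both libraries stayed at or above 1.5 in all windows from 10 to 18 kb. Counted from 10 kb upward, this was the longest such unbroken range among the named maxima. Counted over all widths, both libraries were at or above 1.5 at 11 widths here, against 13 at 19310921 and 13 at 307 kb. At 5 kb, ESC contact here was only 1.20. In 20 kb windows the contact was 1.53 in ESC and 1.76 in RAW 264.7 cells.

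**Figure D3:**
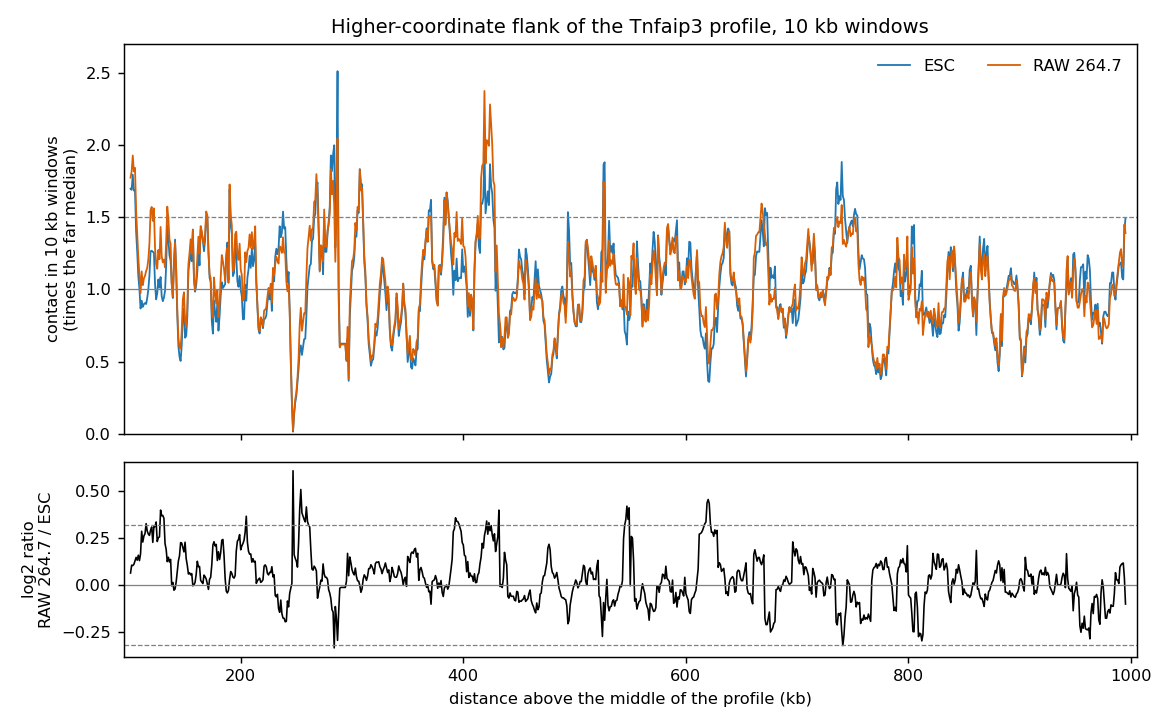
Top, contact in 10 kb windows along the flank in multiples of the far level, for ESC (blue) and RAW 264.7 cells (orange), with lines at 1 and 1.5. Bottom, the log2 ratio of RAW 264.7 over ESC, with dashed lines at 0.32 either way; the highest points are at 287 kb in ESC (2.51) and at 419 kb in RAW 264.7 cells (2.37), and the ratio crosses a dashed line at 35 of 895 positions.

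The maximum at 740 kb, in the window chr10:19942921-19952921, was the third in ESC with 1.88 and the ninth in RAW 264.7 cells with 1.58. In ESC the raised stretch ran over 8 positions from 735 to 742 kb, with a mean of 1.68 in ESC and 1.45 in RAW 264.7 cells. Of the 9 windows of 2 kb, 7 held repeated pairs. This was the only maximum of either library beyond 700 kb.

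At 526 to 527 kb a maximum again sat on a stretch at 0. The ESC maximum at 527 kb had 1.88 in ESC and 1.65 in RAW 264.7 cells, and the RAW 264.7 maximum at 526 kb had 1.75 in RAW 264.7 cells and 1.86 in ESC. At both positions 6 of the 9 windows of 2 kb were at 0 and 3 had a value. In 20 kb windows the 527 kb position had 1.19 in ESC and 1.15 in RAW 264.7 cells, hardly above the far level. An ESC maximum at 494 kb, with 1.54 against 1.33 in RAW 264.7 cells, was of the same kind, with 7 of 9 windows at 0.

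At several maxima below 400 kb the cell types were near-equal. At 307 kb, in chr10:19509921-19519921, contact was 1.83 in ESC and 1.83 in RAW 264.7 cells, and at 385 kb it was 1.67 and 1.67. At 190 kb it was 1.69 in ESC and 1.73 in RAW 264.7 cells, and at 169 kb it was 1.51 and 1.54. At 19310921, in a window that reaches below 100 kb, it was 1.79 in ESC and 1.93 in RAW 264.7 cells.

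A few maxima passed 1.5 in 1 library only, by small margins. At 19341921 RAW 264.7 cells had 1.57 and ESC 1.44. At 238 kb ESC had 1.54 and RAW 264.7 cells 1.36. Further out ESC peaked at 671 kb with 1.56 against 1.38, and RAW 264.7 cells peaked at 668 kb with 1.60 against 1.48. Across the 13 highest maxima of either library the ratio of the libraries in 10 kb windows stayed between 0.814 and 1.20, RAW 264.7 over ESC.

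**Figure D4:**
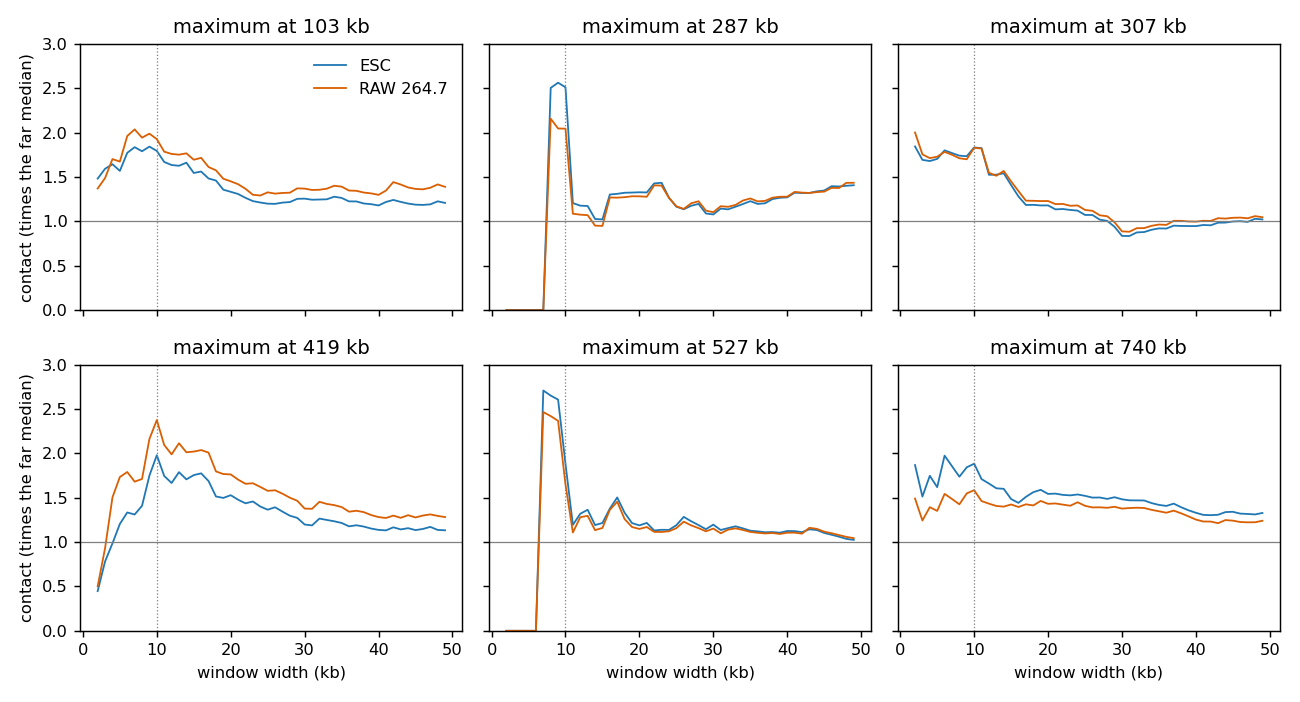
Contact in multiples of the far level against window width from 2 to 49 kb at 6 maxima, for ESC (blue) and RAW 264.7 cells (orange), with the 10 kb width dotted. At 287 and 527 kb widths below 8 and 7 kb are at 0, and in ESC contact is back to 1.33 and 1.19 in 20 kb windows, whereas at 419 and 740 kb it is 1.53 and 1.54 there. At 419 kb contact is low in the narrowest windows, with 0.447 in ESC at 2 kb, and in 49 kb windows the ESC values are 1.41 at 287 kb, 1.13 at 419 kb and 1.33 at 740 kb.

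Of the 3 lowest points of each library, 1 was common to both. At 247 kb (19454921) contact was 0.0156 in ESC and 0.0237 in RAW 264.7 cells, the lowest in both. Of the 9 windows of 2 kb there, 7 were at 0, and the 2 with a value both held repeated pairs. The next low points in ESC were at 477 kb, with 0.356 in ESC and 0.414 in RAW 264.7 cells, and at 621 kb, with 0.360 and 0.486. In RAW 264.7 cells they were at 297 kb, with 0.380 against 0.368 in ESC, and at 902 kb, with 0.404 against 0.398. At 477 kb all 9 windows of 2 kb had a value and 7 held repeated pairs, so low contact there did not come with empty windows.

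In 49 kb windows the flank reduced to a few broad rises and dips of which most, but not all, were at nearly the same places in both cell types. The highest broad window in ESC was at 287 kb, with 1.41 in ESC and 1.44 in RAW 264.7 cells. In RAW 264.7 cells it was at 404 kb, with 1.47 against 1.33 in ESC, where the nearest ESC maximum was at 402 kb. Both libraries also rose at 734 kb, with 1.36 in ESC and 1.30 in RAW 264.7 cells, and at 590 kb, with 1.24 and 1.22. The lowest broad window was at 334 kb in both, with 0.696 in ESC and 0.748 in RAW 264.7 cells. Dips at 482 kb, with 0.778 in ESC and 0.749 in RAW 264.7 cells, and at 789 kb, with 0.775 and 0.769, were shared too. Closest to the middle the listed maxima differed in place. The second highest broad maximum of RAW 264.7 cells was at 19309921, with 1.44 against 1.24 in ESC. This was the highest broad ratio of the flank, with a log2 value of 0.21. The listed ESC maximum was at 19321921, with 1.21 against 1.34 in RAW 264.7 cells. ESC contact was thus higher at 19309921 than at its listed maximum, but was not a local maximum there. Both of these 49 kb windows reach below 100 kb. Broad maxima were taken at 1.2 or more times the far level and 50 kb apart. A RAW 264.7 maximum at 188 kb had 1.24 against 1.15 in ESC, where contact was raised but below that limit.

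**Figure D5:**
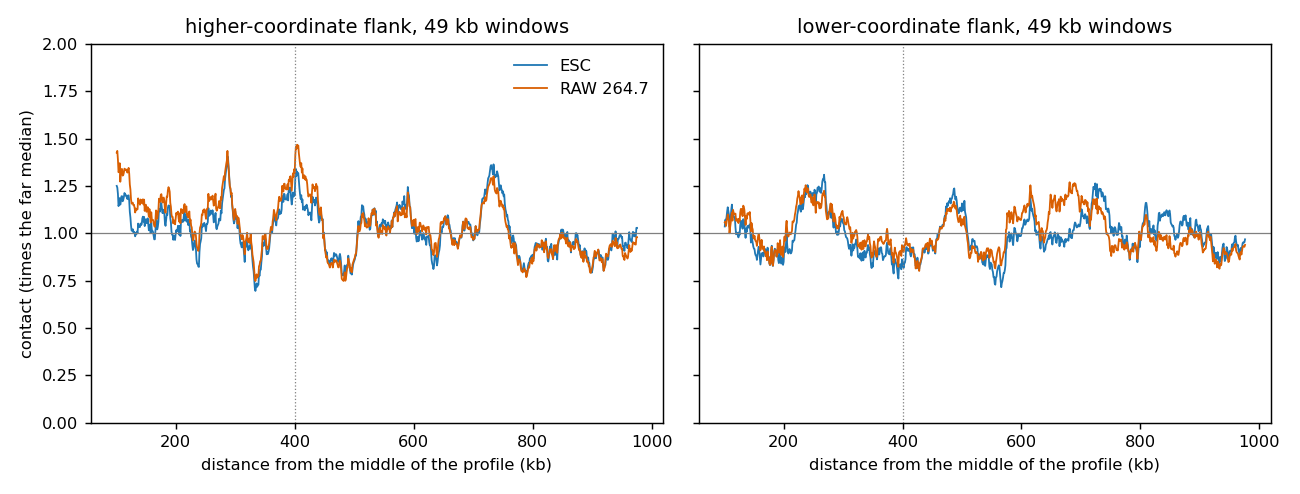
Contact in 49 kb windows against distance from the middle, in multiples of the far level, in the higher-coordinate flank (left) and the lower-coordinate flank (right) for ESC (blue) and RAW 264.7 cells (orange). In the higher-coordinate flank both lines rise at 287 kb, at 402 to 404 kb and at 734 kb and dip at 334, 482 and 789 kb, and the RAW 264.7 line is above the ESC line at 297 of 300 positions left of the dotted line at 400 kb.

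Differences between the cell types were small. In 10 kb windows the median log2 ratio of RAW 264.7 over ESC was 0.03 over the flank, and the central 95% of positions lay between -0.23 and 0.34. A difference of at least 0.32 in log2 was counted. RAW 264.7 cells were higher by that much at 33 of 895 positions (3.69%), against 5.13% of all positions of the profile. ESC was higher by that much at 2 positions (0.223%), against 1.51% of all positions. At this width both shares were below the background of the profile. As deposited, without scaling, 18 positions (2.01%) passed for RAW 264.7 cells, against 3.67% of all positions, and 4 (0.447%) for ESC, against 2.11%. In 5 kb windows the RAW 264.7 share was 6.80%, against 6.65%, and in 2 kb windows it was 16.1%, against 15.2%. In narrow windows it was thus close to the background, which includes the flank itself. The ESC share was 2.49% in 5 kb windows, against 3.3%, and 3.26% in 2 kb windows, against 3.19%. At 1.5-fold 1 position was higher in RAW 264.7 cells and 0 in ESC, and at 2-fold the count was 0 in both directions. That 1 position was at 247 kb, with 0.0237 in RAW 264.7 cells and 0.0156 in ESC. There 7 of the 9 windows of 2 kb were at 0. The share of all positions past 1.5-fold was not counted, but log2 ratios over the whole profile ran from -0.61 to 0.73.

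The 33 positions formed 12 runs, of which the longest was 8 kb, and the 2 positions higher in ESC stood alone. The longest run was at 253 to 260 kb (19460921 to 19467921), with a mean of 0.895 in RAW 264.7 cells and 0.685 in ESC, 1.31-fold higher. It lay just above the lowest window, and 10 of its 15 windows of 2 kb with a value held repeated pairs. The second run, at 617 to 622 kb, had means of 0.651 in RAW 264.7 cells and 0.501 in ESC, also 1.31-fold higher, and lay in a low stretch just above the 2 kb window at 614 kb. Further runs of 4 kb were at 19335921 to 19338921, with 1.26 in RAW 264.7 cells and 0.975 in ESC, at 393 to 396 kb, 1.27-fold higher, and at 546 to 549 kb, with 0.957 and 0.735. In 49 kb windows the mean log2 ratios of these 5 runs in order were 0.10, 0.07, 0.19, 0.09 and -0.05. The 2 single positions higher in ESC were at 284 kb, with 2.00 in ESC and 1.58 in RAW 264.7 cells, and at 741 kb, with 1.65 and 1.31, each beside a maximum.

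In wide windows the inner part of the flank was slightly higher in RAW 264.7 cells than the outer part, relative to ESC. At 100 to 400 kb the median log2 ratio in 10 kb windows was 0.08, and RAW 264.7 cells were above ESC at 241 of 300 positions. Beyond 400 kb the median was 0.00069, and they were above ESC at 300 of 595 positions. In 49 kb windows RAW 264.7 cells were above ESC at 297 of 300 inner positions, with a median log2 ratio of 0.09, and at 205 of 575 outer positions, with a median of -0.02. Taking only every 49th position, so that windows did not overlap, left 6 of 6 inner and 4 of 11 outer windows above ESC. The inner limit of 400 kb was set after the values were seen. The difference between inner and outer medians, which does not depend on scaling, was 0.08 in 10 kb and 0.10 in 49 kb windows. In the lower-coordinate flank it was 0.03 and 0.10, so in 49 kb windows it was as large there. In 20 kb windows it was 0.096 in the higher-coordinate and 0.046 in the lower-coordinate flank. Every 49th position of the lower-coordinate flank gave 5 of 6 inner and 5 of 11 outer windows above ESC. In 2 kb windows with repeated pairs the order was the opposite, with a median log2 ratio of 0.03 in the inner and 0.04 in the outer part and RAW 264.7 cells above ESC in 59.8% and 67% of windows. In the other 2 kb windows the medians were 0.05 and -0.02.

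The shape of the flank was close to identical in both libraries. Across 895 positions the Spearman coefficient of 10 kb contact between ESC and RAW 264.7 cells was 0.945, and the Pearson coefficient of the log2 values was 0.965. Over window widths from 2 to 49 kb the Spearman coefficient stayed between 0.923 and 0.971. With every 10th position, so that windows did not overlap, it was 0.948 over 89 positions. These coefficients describe 1 pair of libraries that share the places of windows at 0 and the repeated pairs of values, and neighbouring positions are not independent. By segment it ran from 0.904 at 500 to 600 kb to 0.976 at 400 to 500 kb.

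Set beside the lower-coordinate flank, the 900 positions at the mirrored distances from 18207921 to 19106921, the levels were alike. The lower-coordinate median was 0.978 in ESC and 1.00 in RAW 264.7 cells. The lower-coordinate flank had 8 maxima in each library, the highest 1.97 in ESC and 2.12 in RAW 264.7 cells, the latter at 668 kb below the middle. RAW 264.7 cells were higher there by at least 0.32 in log2 at 52 of 895 positions and ESC at 20. The longest run was 14 kb. The Spearman coefficient between the libraries fell from 0.887 in 10 kb windows to 0.772 in 49 kb windows there, and was 0.945 and 0.946 in the higher-coordinate flank. The spread of the log2 ratio over positions, as an SD, was 0.18 in the lower-coordinate and 0.14 in the higher-coordinate flank in 10 kb windows. With 1 library per group these differences between flanks were not tested.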

How the data were processed

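Each deposited 4C-seq profile lists 2001 positions and 48 window widths, from 2 to 49 kb. Every width has 3 columns, which were taken to be a central contact signal between bounds above and below it, a layout inferred from the files. The submitters' processing notes name mm9, CASAVA 1.4 and Bowtie2 2.0.1 without roles, and what made the profiles is not stated in the sources used. The signal was deposited relative to the highest 2 kb window of its library. The deposited bounds are a score on the same scale and obey a geometric mean with 1 offset per library. What they measure is not stated, and they are not an error between libraries.

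Signal was divided by each library's median at 500 to 900 kb. The naming rule took 10 kb windows, up to 10 maxima per library at 1.5 times the far level and 20 kb apart, 3 minima per library and the 5 longest runs. The positions of the flank follow a rule of position alone. The choice of this flank, the lists and the thresholds were nevertheless made with earlier results of these data known. Repeated pairs, inner and outer parts, raised stretches, broad maxima and single 2 kb windows were chosen after their values were seen. With 1 library per group no test, interval or p-value was computed, and with depth unknown no counting error. Functions were tested on simulated data with less spread than these, which checks the code and not how reliable the calls here are. Window width, scaling, thresholds, filters and range were varied. Python 3.11.15, NumPy 2.4.6, SciPy 1.17.1, pandas 2.3.3 and Matplotlib 3.10.9 were used.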

Additional observations from a re-analysis of the deposited data

How the results depend on the processing

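Among the alternatives for summary results 29 values moved beyond 10% (levels), 0.1 (log2 ratios), 0.05 (correlations) or 1.5 times (counts). The cause was not tested, except that a wider window, a shorter range or another threshold counts other positions. Counts of positions higher by 0.32 in log2, 33 for RAW 264.7 cells and 2 for ESC, became 60 and 22 at a width of 5 kb, 13 and 0 at 20 kb, 0 and 0 at 49 kb, 18 and 4 as deposited, and 16 and 1 with each library's offset added, an alternative chosen after seeing the data. They were 21 higher in RAW 264.7 cells with scaling by the lower side only, 1 higher in ESC with a pseudocount of 1%, 1 and 0 at 1.5-fold and 0 and 0 at 2-fold. At 20 kb the RAW 264.7 share was 1.46%, against 2.27% of all positions of the profile, and the ESC share 0%, against 0.555%. Shares at 5 kb and as deposited are given above. For the offset, lower-side and pseudocount settings the share over all positions was not counted, so those counts say nothing particular about the flank. Maxima in ESC and RAW 264.7 cells, 12 and 11, became 26 and 21 at a width of 5 kb, 3 and 3 at 20 kb, and 0 and 0 at 49 kb. They were 7 in RAW 264.7 cells at 200 to 900 kb, 1 and 2 at 2 times the far level and 24 and 25 at the lower threshold tried. As deposited, the median levels were 0.139 and 0.138, and maxima have no threshold there. Median log2 ratios ran from -0.0053 as deposited to 0.034 at a width of 20 kb, and the inner-minus-outer difference from 0.053 to 0.10. The median log2 ratio was 0.027 in the main setting, so its sign changed as deposited. Changes of sign were not counted separately. Of 242 alternative values for contact at named maxima 65 moved. No paired analysis was possible because each group has 1 library, and leaving out a replicate was not possible for the same reason.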
